A study of Mus musculus with 23 samples.

Results

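Expression of 7 genes of the double-positive thymocyte, Arpp21, Themis, Cd1d1, Satb1, Arl5c, Tdrp and Dgkeos, was followed by RNA sequencing through 23 libraries, out of 24475 genes listed. They were chosen by name, some as genes of cortical double-positive thymocytes and some because their fall in T-cell acute lymphoblastic leukemia (T-ALL) had been seen in these same libraries. Their distance from thymus is therefore a description with no test, and the comparisons tested are those between the T-ALL groups and among single tumors. Normal thymus came from C57BL/6 animals (6 libraries). The 17 tumors were T-ALL in spleens of BALB/c Rag2-/-Il2rg-/- hosts that had received a newborn thymus under the kidney capsule. The donor thymus was Wild type in 14 (WT T-ALL; by the study's methods from the congenic line B6.Ly5.1) and Notch3 knockout in 3 (Notch3 KO T-ALL; β-galactosidase inserted in the first coding exon of Notch3). Tissue, disease and host strain part together between thymus and tumors and cannot be told apart. Each library is named by the number in its label, and no source used here gives the age of the controls. The spleens were unfractionated and hold host cells beside the leukemic cells, so that fewer cells of a type and less RNA per cell cannot be told apart.

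Double-positive thymocytes carry both Cd4 and Cd8 and make up most of the thymic cortex. They rearrange the T-cell receptor alpha locus with the Rag recombinase and are then selected on peptide or lipid ligands. Satb1 is a chromatin organizer that sets up thymocyte gene expression, and Themis is an adaptor of T-cell receptor signaling needed for positive selection. Cd1d1 encodes a lipid-presenting molecule through which double-positive thymocytes select natural killer T cells. Arpp21 is an RNA-binding phosphoprotein whose gene hosts a miR-128 precursor. Arl5c belongs to the Arf-like small GTPases. Tdrp is named for a role in testis development, and Dgkeos is a long non-coding RNA transcribed opposite Dgke, the gene of diacylglycerol kinase epsilon.

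On RefSeq GRCm38.p6, Arpp21 (gene 74100) lies on chromosome 9 at 112065091 to 112236288 and Themis (gene 210757) on chromosome 10 at 28668360 to 28883820. Cd1d1 (gene 12479) lies on chromosome 3 at 86995834 to 87012358 and Satb1 (gene 20230) on chromosome 17 at 51736187 to 51833290. Arl5c (gene 217151) lies on chromosome 11 at 97989575 to 97996285, Tdrp (gene 72148) on chromosome 8 at 13952008 to 13975478, and Dgkeos (gene 414094) on chromosome 11 at 89060751 to 89067884. The 7 genes thus sit on 6 chromosomes, and Arl5c and Dgkeos share one.

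Stretches of RefSeq sequence (GRCm38.p6) are shown for the starts of the members with the highest level (Satb1) and the only overlap with thymus (Themis), and of neighbours that moved with or against a member. Windows of the 250 bases before a start were searched on both strands for CAGCTG and CAGGTG (E boxes, the letters bound by E proteins), AGGTCA (letters bound by Ror receptors), TGTGGT (Runx) and CTTTGA (Tcf). Matches are in capitals. The Themis window is chr10:28668110-28668359, plus strand, and overlaps no annotated exon.
Themis: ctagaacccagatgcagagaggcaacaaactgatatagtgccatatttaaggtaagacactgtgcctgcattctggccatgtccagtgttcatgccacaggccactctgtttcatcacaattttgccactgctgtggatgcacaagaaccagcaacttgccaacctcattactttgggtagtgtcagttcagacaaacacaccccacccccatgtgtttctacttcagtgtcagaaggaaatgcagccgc
The Satb1 window is chr17:51833291-51833540, minus strand, inside Gm6934, an annotated transcript of the other strand (GENCODE).
Satb1: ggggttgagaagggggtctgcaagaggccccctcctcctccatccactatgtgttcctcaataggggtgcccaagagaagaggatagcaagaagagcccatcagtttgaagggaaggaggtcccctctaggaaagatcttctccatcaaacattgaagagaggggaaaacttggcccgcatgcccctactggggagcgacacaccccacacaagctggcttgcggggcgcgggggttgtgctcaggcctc
The window before 2900079G21Rik, a long non-coding RNA that starts inside Arpp21 on the other strand, is chr9:112234027-112234276, plus strand, and lies in an Arpp21 intron.
2900079G21Rik: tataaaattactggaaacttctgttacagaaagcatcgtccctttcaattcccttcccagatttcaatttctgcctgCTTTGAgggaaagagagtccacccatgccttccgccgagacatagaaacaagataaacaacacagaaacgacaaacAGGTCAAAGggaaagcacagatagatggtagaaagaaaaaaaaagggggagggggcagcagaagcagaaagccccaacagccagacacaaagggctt
The window before Gm525, the next gene after Dgkeos, is chr11:89073591-89073840, plus strand, between both genes.
Gm525: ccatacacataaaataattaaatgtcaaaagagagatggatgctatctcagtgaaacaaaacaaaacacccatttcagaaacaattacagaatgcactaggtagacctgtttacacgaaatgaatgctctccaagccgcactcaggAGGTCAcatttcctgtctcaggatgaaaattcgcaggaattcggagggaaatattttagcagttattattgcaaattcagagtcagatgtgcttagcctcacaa
The first 30 bases of Dgkeos, chr11:89060751-89060780, plus strand, lie within the 45 bases that Dgkeos and the head-to-head gene Dgke share.
Dgkeos: agtccgcacgccggccggcagctcggcgag
The Themis and Satb1 windows held none of the 5 motifs. The 2900079G21Rik window held CTTTGA 2 times and AGGTCA 1 time, of which AGGTCA and a CTTTGA on the minus strand overlap in 3 bases, and the Gm525 window held AGGTCA 1 time. Of 32536 distinct windows of this length in the reference, 13.1% held CAGCTG, 17.3% CAGGTG, 14.0% AGGTCA, 14.0% TGTGGT and 13.9% CTTTGA. A match is a run of letters and not a site.

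All 7 genes were expressed in thymus and lower in both T-ALL groups, but the depth of the fall differed widely between them. Values are log2(scaled RPKM + 1), where RPKM corrects reads for transcript length and was scaled so that the 75th percentile of each library is 10. In thymus the order of the mean levels was Satb1 (8.95 ± 0.21, SD, n = 6), Themis (7.54 ± 0.34), Arl5c (7.48 ± 0.30), Arpp21 (7.23 ± 0.24), Dgkeos (6.13 ± 0.38), Cd1d1 (4.80 ± 0.29) and Tdrp (4.56 ± 0.28). Themis, Arl5c and Arpp21 lay within 1 SD of the next, and so did Cd1d1 and Tdrp. In WT T-ALL the order was Satb1 (6.57 ± 0.53, n = 14), Themis (6.05 ± 0.77), Arpp21 (5.99 ± 0.51), Cd1d1 (3.32 ± 0.51), Arl5c (2.80 ± 1.55), Dgkeos (0.32 ± 0.29) and Tdrp (0.18 ± 0.27), so that Arl5c passed from the third place to below Cd1d1. Satb1 and Themis, Themis and Arpp21, Cd1d1 and Arl5c, and Dgkeos and Tdrp were neighbours within 1 SD. In Notch3 KO T-ALL the means were 7.08 ± 0.31 for Satb1 (n = 3), 5.94 ± 0.81 for Arpp21, 5.47 ± 0.39 for Themis, 3.44 ± 0.74 for Arl5c, 3.22 ± 0.61 for Cd1d1, 0.64 ± 0.39 for Dgkeos and 0.26 ± 0.33 for Tdrp.

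**Figure D1:**
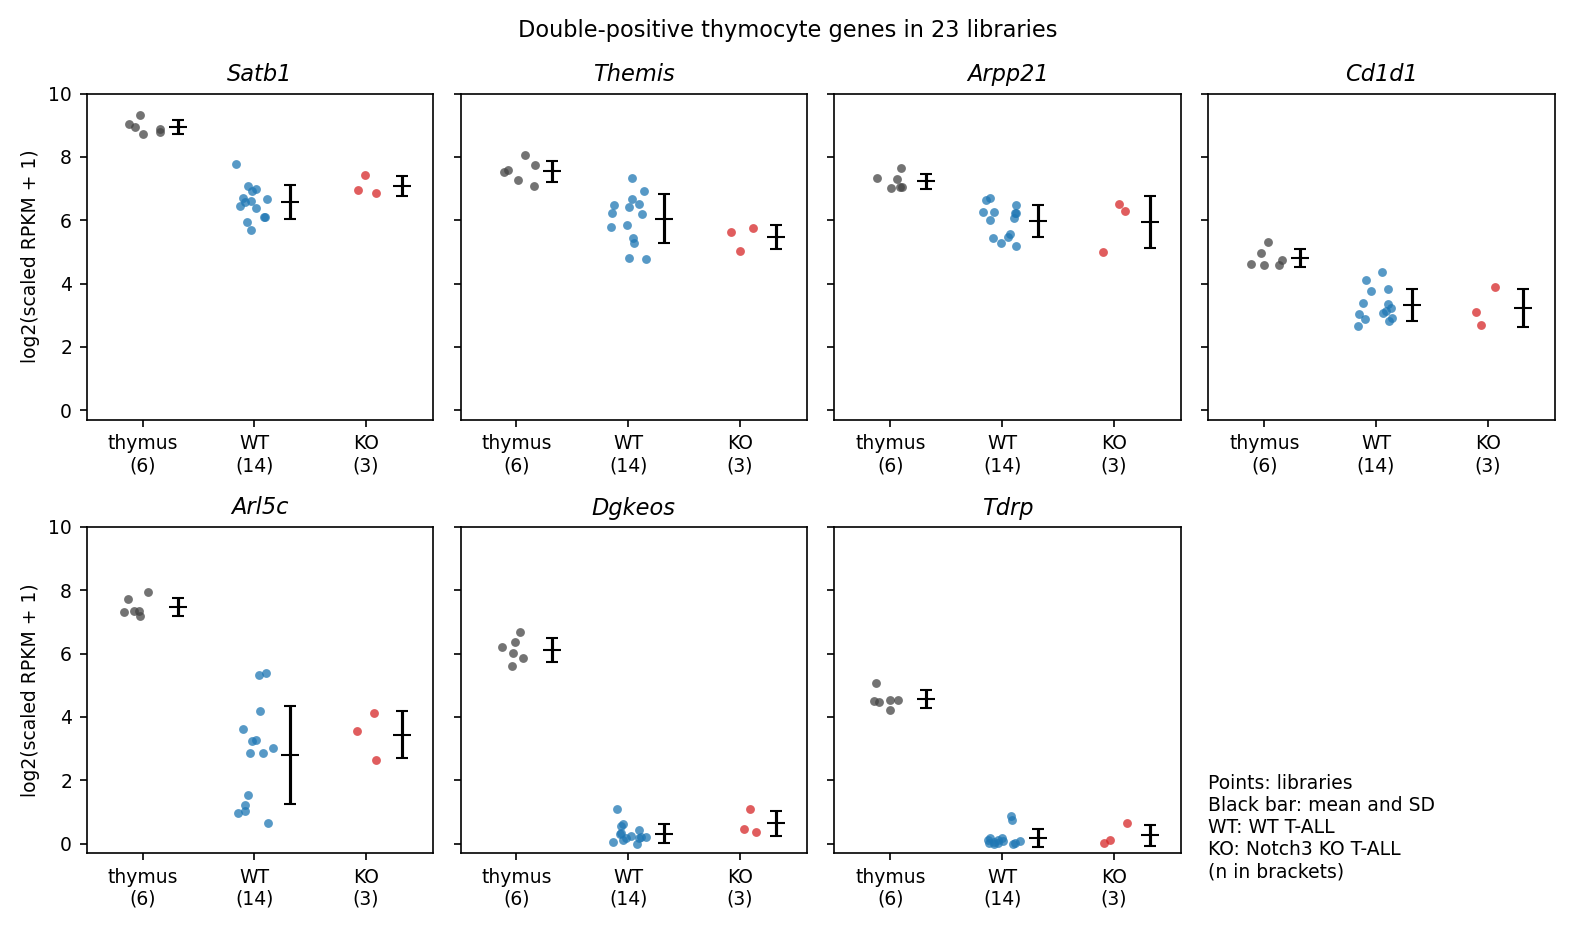
Level of each of the 7 genes as log2(scaled RPKM + 1), with 1 point per library in thymus (6), WT T-ALL (14) and Notch3 KO T-ALL (3) and a black bar for the mean and SD. The tumors lie below all thymus controls except for 1 WT T-ALL library in the Themis panel, and Dgkeos and Tdrp lie near 0 in every tumor.

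In all 14 WT T-ALL libraries, 6 of the 7 genes lay below every thymus control, and in the 3 Notch3 KO libraries all 7 did so. Over the 11919 genes tested, 6.64% lay wholly below thymus in WT T-ALL and 18.4% in Notch3 KO T-ALL. Since falls in these libraries helped to choose the genes, nothing is read from this contrast, and both comparisons share the same controls. The thymus controls resembled each other in pairs, with correlations over all genes of 0.997 for controls 1 and 3, 0.998 for 2 and 4 and 0.995 for 5 and 6, against 0.982 to 0.993 for other pairs. The labels do not say whether each came from its own animal. A figure legend of the study, for T-ALL cases beside normal thymus, gives a single mouse per dot but names no libraries. Control 6 had the highest value of 6 of the 7 genes.

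Satb1, the chromatin organizer, had the highest level in every group. It measured 8.71, 8.89, 9.02, 8.79, 8.94 and 9.32 in thymus controls 1 to 6. The WT T-ALL libraries ran from 5.69 (WT T-ALL 126) through a median of 6.59 to 7.79 (WT T-ALL 7), and Notch3 KO T-ALL 1, 2 and 3 gave 6.87, 6.94 and 7.44. No tumor reached the thymus range. The log2 difference of the means from thymus was -2.38 in WT T-ALL and -1.86 in Notch3 KO T-ALL. In scaled RPKM the mean of WT T-ALL was 20.3% of that of thymus (101 ± 42.3 against 497 ± 77.1), and that of Notch3 KO T-ALL was 27.5%.

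Themis, the adaptor of positive selection, was the only one of the 7 whose WT T-ALL values overlapped thymus. Controls 1 to 6 gave 7.73, 7.09, 8.05, 7.27, 7.59 and 7.53. WT T-ALL ran from 4.77 (WT T-ALL 3) through 6.21 to 7.32 (WT T-ALL 36), and this last library lay above controls 2 and 4. Notch3 KO T-ALL 1, 2 and 3 gave 5.63, 5.75 and 5.03, all below the WT T-ALL median. The mean scaled RPKM was 38.9% of thymus in WT T-ALL and 23.3% in Notch3 KO T-ALL.

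Arpp21, the RNA-binding protein, and Cd1d1, the lipid-presenting molecule, had the smallest log2 differences from thymus, with -1.25 and -1.48 in WT T-ALL and -1.30 and -1.58 in Notch3 KO T-ALL. Arpp21 gave 7.02, 7.05, 7.32, 7.06, 7.31 and 7.63 in thymus, 5.19 (WT T-ALL 36) to 6.71 (WT T-ALL 5) with a median of 6.15 in WT T-ALL, and 5.01, 6.51 and 6.29 in Notch3 KO T-ALL. Its gap between the lowest control and the highest of the 17 tumors was 0.32. Cd1d1 gave 4.73, 4.63, 4.59, 4.58, 4.95 and 5.31 in thymus, 2.66 (WT T-ALL 3) to 4.35 (WT T-ALL 36) with a median of 3.19 in WT T-ALL, and 2.68, 3.88 and 3.11 in Notch3 KO T-ALL. In scaled RPKM, WT T-ALL held 43.6% of the thymus mean of Arpp21 and 35.3% of that of Cd1d1. WT T-ALL 36 thus had the lowest Arpp21 and the highest Cd1d1 and Themis of its group. Reads of Cd1d1 may be shared with its near-identical copy Cd1d2, so both values are uncertain.

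Arl5c, the Arf-like GTPase, was the most variable of the 7 genes among tumors. It measured 7.35, 7.30, 7.35, 7.18, 7.73 and 7.95 in thymus. The 14 WT T-ALL libraries held 5 between 0.65 and 1.53 (WT T-ALL 14, 202, 126, 128 and 108) and 9 between 2.85 and 5.40, with a gap of 1.32 between them, the widest among the 14. WT T-ALL 48 at 5.40 and WT T-ALL 36 at 5.33 were highest, and WT T-ALL 5 came next at 4.20. Notch3 KO T-ALL gave 3.55, 2.65 and 4.12 and so lay above those 5. The log2 difference from thymus was -4.67 in WT T-ALL and -4.04 in Notch3 KO T-ALL. The SD over WT T-ALL was 1.55, where that of the other 6 genes was 0.27 to 0.77.

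Dgkeos and Tdrp were all but lost in every tumor. Dgkeos, the non-coding RNA, gave 6.21, 5.61, 6.03, 5.86, 6.36 and 6.68 in thymus. WT T-ALL ran from 0.00 (WT T-ALL 4, listed at 0) through 0.22 to 1.10 (WT T-ALL 48), and Notch3 KO T-ALL gave 1.09, 0.45 and 0.38. The log2 differences were -5.81 and -5.49. In scaled RPKM the mean was 0.387% of thymus in WT T-ALL and 0.843% in Notch3 KO T-ALL. Tdrp gave 4.53, 4.54, 4.52, 4.23, 4.46 and 5.08 in thymus, 0.00 to 0.87 (WT T-ALL 126) with a median of 0.07 in WT T-ALL, and 0.02, 0.64 and 0.13 in Notch3 KO T-ALL. It was listed at 0 in 2 WT T-ALL libraries, and WT T-ALL 7 at 0.74 was the only one near the highest. The gap between the lowest control and the highest of the 17 tumors was 4.51 for Dgkeos and 3.36 for Tdrp, and that of Arl5c was 1.78. The fall itself helped to choose these genes, so that the gaps are a description. The offset of 1 in the deposited values understates the folds of genes this low.

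**Figure D2:**
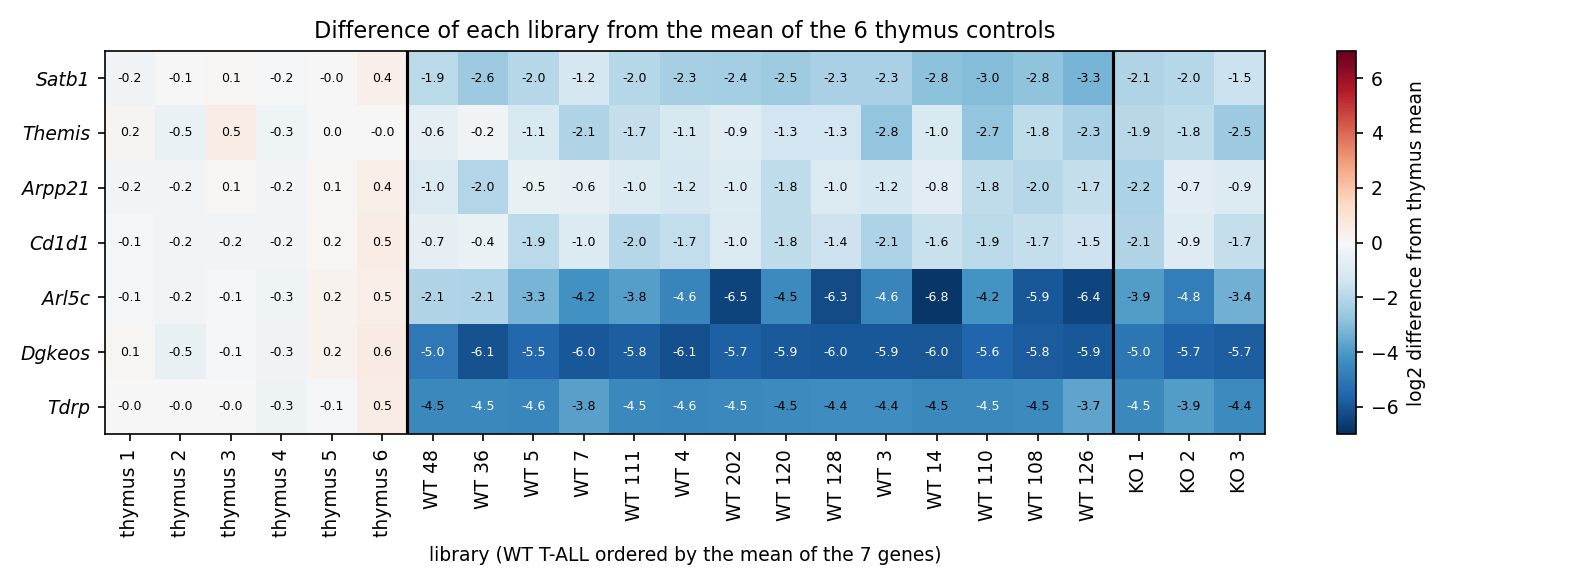
Difference of each library from the mean of the 6 thymus controls, in log2 units, for the 7 genes (one row each) and the 23 libraries (WT T-ALL ordered by the mean of the 7 genes). Blue is lower than thymus. Dgkeos and Tdrp are evenly low over the tumors, while Arl5c varies most from tumor to tumor, from WT T-ALL 48 with the smallest to WT T-ALL 14 with the deepest fall.

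The mean log2 value over the 7 genes lay between 6.42 and 7.07 in thymus. In WT T-ALL it lay between 3.14 and 4.42, and the Notch3 KO libraries (3.55 to 3.83) were within that range. WT T-ALL 48 was the tumor with the highest mean and WT T-ALL 126 the one with the lowest. WT T-ALL 48 ranked first in its group for Arl5c and Dgkeos and second for Themis, Cd1d1 and Satb1, but sixth for Arpp21. WT T-ALL 126 ranked last for Satb1 and first for Tdrp.

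General T-cell genes were compared beside these falls, since the tumors also held host cells. The mean of 12 T-lineage genes ran from 7.78 to 8.03 in thymus. In WT T-ALL its range was 6.56 to 7.60 and 7 of the 12 fell by limma. The Notch3 KO libraries spanned 6.96 to 7.29, and 5 fell. Of all genes tested, 22.3% fell in WT T-ALL and 16.3% in Notch3 KO T-ALL. The mean of Cd3d, Cd3e and Cd3g, the invariant chains of the T-cell receptor complex, differed from thymus by -0.12 in WT T-ALL and -0.36 in Notch3 KO T-ALL. Relative to these Cd3 genes, the differences of the 7 genes in WT T-ALL ran from -1.13 (Arpp21) to -5.69 (Dgkeos), and in Notch3 KO T-ALL from -0.94 to -5.13. On this scale Arl5c, Tdrp and Dgkeos kept all 17 tumors below thymus. Arpp21, Cd1d1 and Satb1 had 13 of 14 WT T-ALL libraries below, the exception being WT T-ALL 7, whose Cd3 genes were the lowest. Themis had 13 of 14 as well, with WT T-ALL 4 above the lowest control. Notch3 KO T-ALL 2 overlapped thymus for Arpp21 and Cd1d1.

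Markers of other cells moved with the groups, where 29.3% of all genes rose in WT T-ALL and 21.2% in Notch3 KO T-ALL. The summed scaled RPKM of 10 erythroid genes ran from 25.1 to 393 in thymus. WT T-ALL gave 765 to 52050, with 9 of the 10 risen by limma, and the Notch3 KO libraries 31532 to 103280, with all 10 risen. That of 8 neutrophil genes ran from 57.1 to 531 in thymus, 639 to 84538 in WT T-ALL, where 8 rose, and 203 to 7595 in Notch3 KO T-ALL, where 4 rose. For 7 macrophage genes it was 8.56 to 52.4, 16.1 to 276 and 195 to 275, with 6 and 7 higher by the test. For 5 megakaryocyte genes it was 0.705 to 1.27, 4.18 to 200 and 60.9 to 185, with all 5 higher in each T-ALL group. Among 7 markers of thymic epithelium it was 7.68 to 10.3 in thymus. WT T-ALL gave 2.47 to 9.86, and the Notch3 KO libraries 3.51 to 8.84, where Foxn1, Psmb11 and Krt5 were listed at 0. The 6 B-cell markers summed to 17.5 to 23.2 in thymus and 0.524 to 5.80 in WT T-ALL. The part of these cells in the falls was not tested.

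The question of whether loss of Notch3 in the donor thymus altered these genes was addressed by comparing both T-ALL groups, a contrast not used to choose them. Of the 7 genes, 5 passed the filter in the tumors (3 or more of 17 libraries with a scaled RPKM of 1 or above). None of these 5 passed limma, in which 0.617% of 11677 genes were called, and none reached an unadjusted p under 0.05 by limma or by the two-sided exact permutation test over all 680 splits. Satb1 was higher in Notch3 KO T-ALL by 0.51 (95% interval -0.13 to 1.16, limma adjusted p = 0.765, exact permutation p = 0.156), and its 3 libraries all lay above the WT T-ALL median. Without WT T-ALL 7, left out after the values were seen, the difference was 0.61 and the exact permutation p was 0.0321, unadjusted. Themis was lower by 0.58 (interval -1.48 to 0.31, limma adjusted p = 0.884, exact permutation p = 0.229). Arl5c differed by 0.64, with an interval from -1.17 to 2.45 (limma adjusted p = 0.980) that is the widest of the 5. Cd1d1 differed by -0.10 (interval -0.76 to 0.56) and Arpp21 by -0.05 (interval -0.74 to 0.64), with limma adjusted p of 0.996 and 0.998. The direction of both turned without Notch3 KO T-ALL 1, to 0.17 and 0.41. Dgkeos and Tdrp were below the filter in the tumors, near 0 in both groups, and their differences of 0.32 and 0.09 are given with no test. Markers of other cells also differed between the T-ALL groups, with none called by limma. Their median difference was 2.33 for 10 erythroid, 1.81 for 5 megakaryocyte, 1.06 for 7 macrophage and -0.80 for 8 neutrophil genes. That of 12 T-lineage genes was -0.14. The part of these cells in the contrast was not tested.

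**Figure D3:**
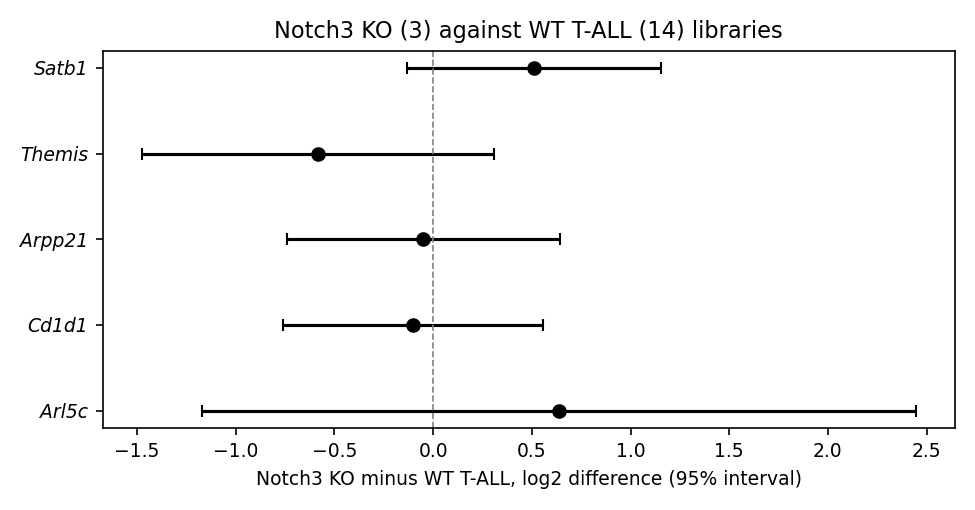
Difference between Notch3 KO (3 libraries) and WT T-ALL (14) in log2 units, with its 95% interval from limma, for the 5 genes that passed the filter in the tumors. Each interval spans 0, and that of Arl5c, from -1.17 to 2.45, is the widest.

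Among WT T-ALL, it was asked whether the genes rise and fall together from tumor to tumor. Of 21 pairs, which include those with the near-absent Dgkeos and Tdrp, none passed after adjustment. Arpp21 and Satb1 came nearest (Pearson r = 0.67, permutation p = 0.00711, adjusted p = 0.149; Spearman rho = 0.64, permutation p = 0.0167, adjusted p = 0.244; n = 14), with r = 0.69 when the 2 libraries farthest from the median of Arpp21 were left out. Themis and Cd1d1 followed (r = 0.61, permutation p = 0.0198, adjusted p = 0.208; rho = 0.57, permutation p = 0.0348, adjusted p = 0.244; r = 0.47 without the 2 farthest). Arl5c, whose values were unevenly spread over the libraries, is given no coefficient. Relative to the Cd3 genes, and leaving out the pairs with Dgkeos and Tdrp, whose values near 0 then reflect mostly the Cd3 term, 3 of the other 10 pairs passed by Pearson's r and 2 by Spearman's rho. Without WT T-ALL 7 no pair passed by Pearson's r on either scale, and values set against a common term share that term.

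Against the mean level of T-lineage, erythroid, neutrophil and macrophage genes over the same 14 libraries, none of 28 relations passed after adjustment, a family that includes 8 with Dgkeos and Tdrp, which say nothing at values near 0. Themis and the T-lineage mean came nearest (r = 0.72, permutation p = 0.00348, adjusted p = 0.0974; rho = 0.75, permutation p = 0.00249, adjusted p = 0.0697; r = 0.64 without the 2 farthest), followed by Satb1 and the neutrophil mean (r = -0.62, permutation p = 0.0176, adjusted p = 0.191; rho = -0.55, permutation p = 0.0437, adjusted p = 0.306; r = -0.70 without the 2 farthest).

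The genes next to or overlapping the 7 were then examined. Of 18 such genes 13 were tested, and in WT T-ALL 8 fell and 3 rose by limma, and in Notch3 KO T-ALL 5 fell and 2 rose. Among all genes 22.3% fell and 29.3% rose in WT T-ALL, and 16.3% fell and 21.2% rose in Notch3 KO T-ALL. With the erythroid mean as a covariate 1 neighbour (Dgke) was called in WT T-ALL and none in Notch3 KO T-ALL. Of all 11919 genes, 1337 and 349 were called in that fit. The erythroid mean did not overlap between thymus (0.93 to 2.67) and WT T-ALL (3.73 to 7.97) or Notch3 KO T-ALL (7.15 to 9.22). That fit therefore extrapolates and cannot part erythroid content from group. Its standard errors (SE) were larger. In WT T-ALL Trim25 went from -0.48 (SE 0.12) to -0.71 (SE 0.27), and Cacnb1 from -1.87 to -1.13. Dgke, whose start overlaps that of Dgkeos, gave 5.23, 5.66, 5.22, 5.69, 5.88 and 5.70 in thymus, 2.39 to 3.95 with a median of 3.04 in WT T-ALL, and 4.19, 3.60 and 2.74 in Notch3 KO T-ALL. No tumor reached the controls, and the differences were -2.48 (SE 0.20, limma adjusted p = 9.34e-10) and -2.05 (SE 0.28, 9.55e-06). The log2 differences of Dgkeos were larger (-5.81 and -5.49).

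Gm525, which starts 5957 bases after the end of Dgkeos on the same strand (window shown above), moved the other way. It gave 3.86, 3.61, 4.28, 3.33, 4.43 and 4.05 in thymus, 6.33 (WT T-ALL 48) to 9.12 with a median of 8.80 in WT T-ALL, and 3.95, 9.55 and 9.28 in Notch3 KO T-ALL. All WT T-ALL libraries lay above thymus, and Notch3 KO T-ALL 1 alone stayed in the thymus range. Gm525 rose by 4.51 in WT T-ALL (SE 0.54, limma adjusted p = 7.38e-07) and by 3.67 in Notch3 KO T-ALL (SE 0.79, 0.000993). With the erythroid mean as a covariate, which does not overlap between thymus and tumors, the differences were 3.29 (SE 1.17) and 1.84 (SE 1.74). Their limma adjusted p were 0.0703 and 0.586. WT T-ALL 48 and Notch3 KO T-ALL 1, the tumors with the least Gm525, were also those with the most Dgkeos, at 1.10 and 1.09. Since Dgkeos was below the filter in the tumors, no test of a relation between both is given.

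Around Arpp21, the overlapping antisense RNA 2900079G21Rik (window shown above) followed Arpp21 from tumor to tumor. It measured 2.70 to 4.18 with a median of 2.99 in thymus, 0.11 (WT T-ALL 108) to 3.30 (WT T-ALL 7) with a median of 1.55 in WT T-ALL, and 0.27, 1.96 and 2.68 in Notch3 KO T-ALL. It fell by 1.64 in WT T-ALL (SE 0.43, limma adjusted p = 0.00317), and the difference in Notch3 KO T-ALL was -1.52 (SE 0.63, 0.0596). With the erythroid mean as a covariate its differences were -0.34 (SE 0.91, limma adjusted p = 0.846) and 0.43 (SE 1.35, 0.890). Over WT T-ALL its relation to Arpp21 had r = 0.90 (permutation p = 3e-05, adjusted p = 0.00042 over 14 relations; rho = 0.89, permutation p = 7e-05, adjusted p = 0.00098), and r = 0.86 without the 2 farthest. The kit marks strand, but whether the counting used it is not given in the sources used here, so reads of both genes cannot be told apart where they overlap. The other overlapping RNA, 2310075C17Rik, rose in WT T-ALL by 0.80 (SE 0.33, limma adjusted p = 0.0442). With the erythroid mean as a covariate, which does not overlap between thymus and tumors, its difference was -0.27 (SE 0.68, limma adjusted p = 0.835). The miR-128 precursor in Arpp21, Mir128-2, was listed at 0 in all libraries of this mRNA protocol.

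**Figure D4:**
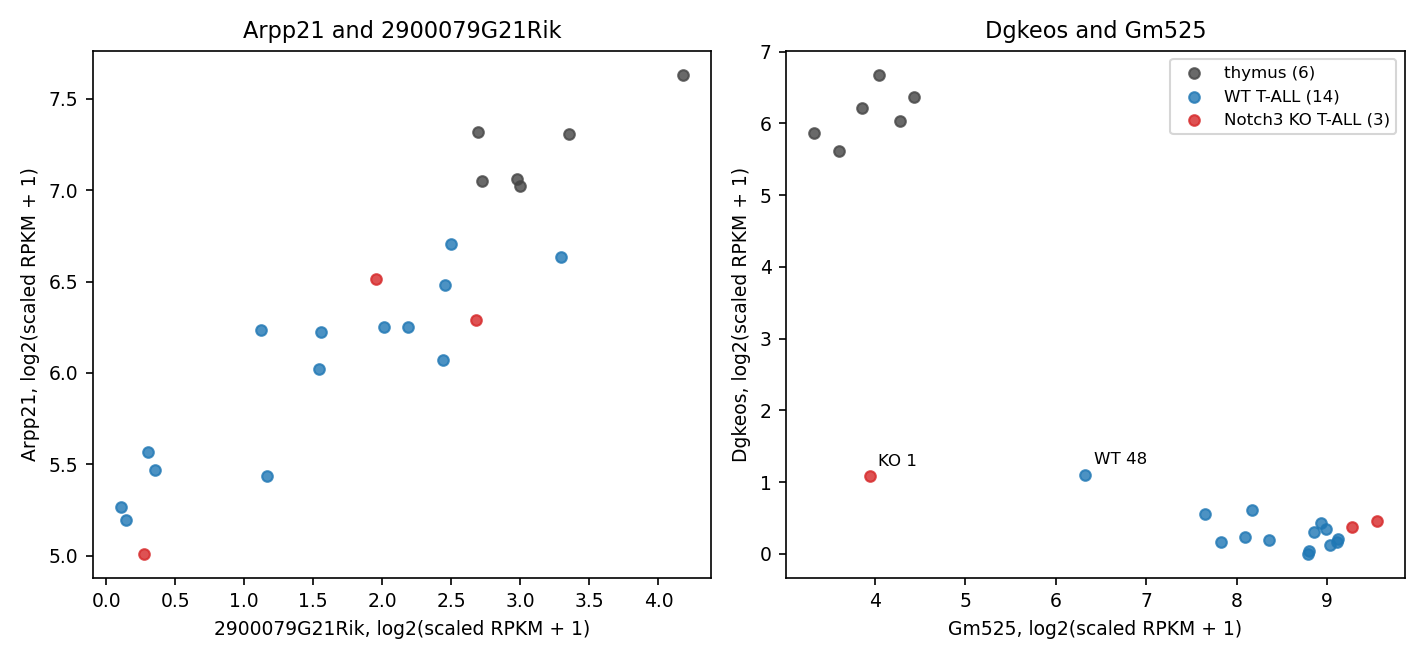
Arpp21 against its antisense RNA 2900079G21Rik (left) and Dgkeos against its downstream neighbour Gm525 (right), both axes as log2(scaled RPKM + 1), with 1 point per library coloured by group. On the left the WT T-ALL points rise along a band (r = 0.90), and all thymus points lie above the tumors on the Arpp21 axis. On the right WT T-ALL 48 (6.33) lies between thymus and the other WT T-ALL on the Gm525 axis, where Notch3 KO T-ALL 1 (3.95) is in the thymus range.

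Of the other neighbours, both genes flanking Arl5c fell: Plxdc1 by 1.43 in both T-ALL groups and Cacnb1, a calcium channel subunit, by 1.87 in WT T-ALL and 1.69 in Notch3 KO T-ALL. Around Tdrp, Fbxo25 fell by 0.80 and Erich1 by 0.47 in WT T-ALL, far less than Tdrp. Beside Satb1, Tbc1d5 rose by 0.92 and 0.76. Trim25 beside Dgke and Pdcd6ip beside Arpp21 fell by 0.48 and 0.31 in WT T-ALL and differed by -0.33 and -0.34 in Notch3 KO T-ALL. Ptprk beside Themis and Dclk2 beside Cd1d1 did not pass in either group, with differences of 0.34 and 0.22 in WT T-ALL. Stac, 2310057J18Rik, Kirrel and Kcnh8 were below the filter.

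Close relatives of the 7 genes were counted next, a list that also holds Dgke, the gene opposite Dgkeos, already counted among the neighbours. Of 7 relatives tested, 3 fell in each T-ALL group, where 22.3% and 16.3% of all genes fell. These were Dgke, Cd1d2 (by 1.51 in WT T-ALL and 1.00 in Notch3 KO T-ALL) and Arl5b (by 0.84 and 1.00). Reads of Cd1d2 may be shared with Cd1d1. Arl5a (-0.16 and -0.49), R3hdm1 (-0.01 and 0.11), R3hdm2 (-0.23 and -0.04) and Themis2 (0.67 and 1.09), an adaptor of B cells and macrophages, did not pass. Over all genes tested the median difference was 0.08 in both comparisons.

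Other genes of the double-positive stage were counted from a list of 23, all tested. In WT T-ALL 15 fell and 1 rose, with a median difference of -1.55, where 22.3% of all genes fell and 29.3% rose. In Notch3 KO T-ALL 15 fell and 1 rose, with a median of -1.35, where 16.3% of all genes fell and 21.2% rose. With the erythroid mean as a covariate, which runs with the groups, 6 and 0 of the 23 passed. In that fit 1337 and 349 of all 11919 genes passed. The largest falls in WT T-ALL were those of Ccr9, a homing receptor (by 4.80), the coreceptor Cd4 (by 4.30), Rag1 (by 3.63) and Plxnd1 (by 3.45). In Notch3 KO T-ALL they were Rag1 (by 4.37), Rag2 (by 3.53), Cd8b1 (by 3.47) and Cd4 (by 3.24). Cd24a, a surface protein of immature thymocytes, rose by 1.03 and 1.85. Ptcra (0.44 and -0.50), Lef1 (0.59 and 0.42), Tcf12 (-0.13 and -0.53) and Ly6d (-1.24 in each) were among the 7 that did not pass. Between the T-ALL groups none of the 23 passed by limma, and 2 (Plxnd1 and Cd24a) had a difference at an unadjusted p under 0.05. Over all genes 994 of 11677 did so, so that nothing is read from these 2.

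**Figure D5:**
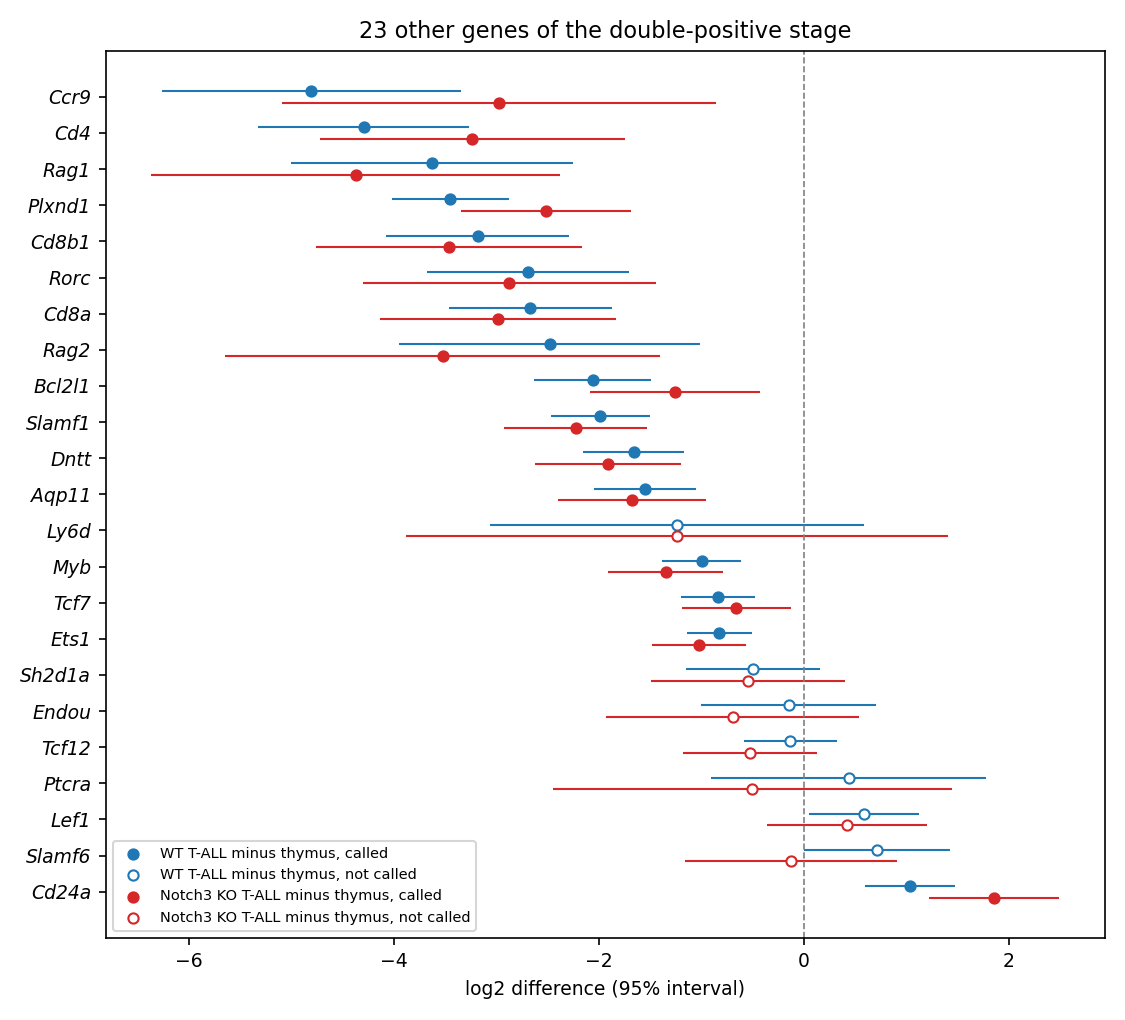
Differences of 23 other genes of the double-positive stage from thymus in log2 units, with 95% intervals from limma, for WT T-ALL (blue) and Notch3 KO T-ALL (red); filled points passed at an adjusted p under 0.05. Filled points lie left of 0 for 15 genes in each group, and Cd24a alone is filled on the right.

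The neighbouring stages divided. Of 11 double-negative genes tested, 5 rose in WT T-ALL (Lmo2 by 3.28, Gfi1b by 2.30, Lyl1 by 1.62 and Spi1 by 1.53, with Bcl11a) and none fell. In Notch3 KO T-ALL 4 rose (Lmo2 by 4.74, Gfi1b by 3.91, Lyl1 by 2.74 and Bcl11a by 2.08) and Il7r fell by 2.46. Of all genes 29.3% and 21.2% rose, and with the erythroid mean as a covariate none of the 11 was called in either group. That fit called 1337 and 349 of all 11919 genes, so that no call among 11 says little. Lmo2, Gfi1b, Lyl1 and Spi1 are also genes of red cell or myeloid precursors, whose markers were higher in the spleens, and the part of such cells was not tested. Of 13 genes of mature single-positive cells 9 fell in each group, among them Cd69 (by 2.91 and 3.56), S1pr1 (by 2.50 and 3.17) and Ccr7 (by 2.61 and 2.92).

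Genes that work with 3 of the 7 were taken as lists, to be read beside the 22.3% of all genes that fell in WT T-ALL and 16.3% in Notch3 KO T-ALL. Of 8 partners of Themis in T-cell receptor signaling, 5 fell in WT T-ALL, among them Tespa1 (by 1.04), Vav1 (by 1.03), Plcg1 (by 0.94) and Lat (by 0.57), and 4 in Notch3 KO T-ALL, among them Tespa1 (by 1.18), Vav1 (by 0.99) and Plcg1 (by 0.87). Grb2, Ptpn6 and Ptpn11, its direct binding partners, differed by -0.06, -0.03 and 0.01 in WT T-ALL. Of 7 genes tested for Cd1d1-dependent selection, 3 fell in WT T-ALL (Ctsl, a protease, by 2.15, the receptor Slamf1 by 1.99 and Psap by 0.69) and B2m, the light chain of Cd1d1, rose by 0.85. In Notch3 KO T-ALL, Slamf1 fell by 2.23 and Ctsl by 1.72. Of 7 genes tested whose expression depends on Satb1 in thymocytes, 6 fell in WT T-ALL and 5 in Notch3 KO T-ALL. These are Rag1, Rag2, Cd4, Cd8a and Cd8b1, all of which the list above also holds, and Zbtb7b, which fell by 1.30 in WT T-ALL and differed by -0.93 in Notch3 KO T-ALL. Foxp3 was below the filter. With the erythroid mean as a covariate, the calls in WT T-ALL were 3 of the 13 mature single-positive genes, 1 of 8 Themis partners, 3 of 7 genes of Cd1d1-dependent selection, 2 of 7 Satb1-dependent genes and 1 of 7 relatives. In Notch3 KO T-ALL none of these lists kept a call. That fit called 1337 and 349 of all 11919 genes, beside which counts of 1 or none say little.

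The genes whose levels were most like each of the 7 over the 14 WT T-ALL libraries are given as a description, among 11677 genes that share depth and scaling. For Arpp21 these were Ttc12 (r = 0.90), 2900079G21Rik (0.90) and Adgrg1 (0.86), and for Themis the zinc finger genes Zfp148 (0.96), Zfp518a (0.93) and Zfp81 (0.92). For Cd1d1 they were Fbxo25 (0.90), Tex264 (0.89) and 3110002H16Rik (0.86), and for Satb1 H2-K2 (0.92), Tnrc6a (0.92) and Pan3 (0.91). The genes most like Arl5c were Ranbp9, Ifit1bl1 and Ankrd17. For Dgkeos they were Ccl22 (0.89), Ttc39b (0.85) and H2-Q5 (0.84), and for Tdrp Dlk1 (0.93, but rho = 0.40), Prr5 (0.84, rho = 0.60) and Bok (0.83, rho = 0.85). Dgkeos and Tdrp were near 0 in these libraries, so that a few of them can set such values.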

How the data were processed

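The authors sequenced stranded mRNA libraries (KAPA kit), mapped the reads to the mm10 transcriptome with OSA in ArrayStudio and deposited log2 values. By the values themselves these are log2(RPKM + 1), with the 75th percentile at a scaled RPKM of 10 in each of 23 libraries. Counts were not used here, so that depth per library is unknown. Symbols turned into dates (27) were restored by identifier. The 7 genes, the lists and the tests were chosen with earlier results of these data known.

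Genes that reached a scaled RPKM of 1 in 3 or more of the libraries fitted were tested by limma 3.58.1 under R 4.3.3, with a trended and robust empirical Bayes step and Benjamini-Hochberg adjustment over all of them. One fit of the 3 groups (11919 genes) gave both comparisons with thymus, and a fit of the tumors (11677 genes) the other. All 7 genes passed the first filter, Dgkeos and Tdrp through thymus alone, and 5 passed the second. The 5 genes were compared between T-ALL groups by two-sided exact permutation tests (smallest possible p 0.00147). Correlations were tested by two-sided permutation with 100000 resamples (scipy 1.17.1). On simulated data limma called 98%, 85% and 86% of genes changed by 2 on the log2 scale in WT T-ALL against thymus, Notch3 KO T-ALL against thymus and both T-ALL groups, but only 87%, 46% and 36% of those changed by 1. The p-values measure the spread between these libraries, which may be technical. Named were all 7 genes, overlapping and nearest protein-coding neighbours, relatives, up to 4 called genes per list and direction, and 3 genes by likeness. Others, such as Ptcra or Grb2, were chosen after their values were seen, as were the paired controls and WT T-ALL 7 and 48 as libraries to leave out or average. Positions and sequences are from RefSeq GRCm38.p6, where 24375 genes (99.6%) matched by identifier. A few genes of the lists are not reported here by name.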

Additional observations from a re-analysis of the deposited data

Results flagged for a closer look

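Among the 6 thymus controls, Tdrp in control 6 measured 5.08 and stood apart from the other 5 (4.23 to 4.54), with a gap that is wide for the range of the group by Dixon's criterion. It was the only one of 28 genes examined to do so, and chance alone gives this in about 1 in 20 groups. The highest of the 17 tumors was at 0.87.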

How the results depend on the processing

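The count of members wholly below thymus in WT T-ALL, 6 as reported, was 6 with an offset of 0.1 in place of 1, 7 with quantile normalization and 3 relative to the Cd3 genes. In Notch3 KO T-ALL it was 5 relative to the Cd3 genes and 7 under the other alternatives run. With the smaller offset the differences of Dgkeos and Tdrp from thymus in WT T-ALL grew to -7.84 and -6.92. Between the T-ALL groups the exact test was passed by 1 member (Satb1) when WT T-ALL 7 was left out, and by none under the other alternatives. Small differences changed direction relative to the Cd3 genes (Arpp21 0.19, Cd1d1 0.14), and that of Arpp21 also when WT T-ALL 7 was left out (0.00061). Leaving out a Notch3 KO library moved Arpp21 from -0.34 to 0.41, Cd1d1 from -0.43 to 0.17 and Tdrp from -0.10 to 0.21. Without library 1 the difference of Dgkeos was 0.10, without library 2 that of Arl5c was 1.03, and without library 3 those of Arl5c, Themis and Satb1 were 0.30, -0.36 and 0.33. Of the 21 pairs correlated, 10 passed by Pearson's r relative to the Cd3 genes against 0 as reported, but 7 of these hold Dgkeos or Tdrp, 4 pairs passed by Spearman's rho, and by Pearson's r 0 passed when WT T-ALL 7 was left out.

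Over all genes, 6150 passed in WT T-ALL against thymus, 4475 in Notch3 KO T-ALL against thymus and 72 between the T-ALL groups. The erythroid mean as a covariate left 1337, 349 and 18, and of the 23 double-positive genes 6 and 0 instead of 16 each. Averaging the paired controls left 3627 and 2875. Leaving out single thymus or Notch3 KO libraries (no WT T-ALL library was left out) gave 5431 to 6184 calls in WT T-ALL. For Notch3 KO T-ALL the range was 2859 (without its library 3) to 4292. Between the T-ALL groups it gave 3 without Notch3 KO library 2, 12 without library 3 and 205 without library 1. That count was 38 without a filter, 6 with a filter at 5, 39 with an offset of 0.1 and 254 with all 3 groups in 1 fit. Quantile normalization changed the split of calls from 3493 higher and 2657 lower to 2921 and 3101 in WT T-ALL, and from 2527 and 1948 to 2059 and 2450 in Notch3 KO T-ALL, where the median of all genes went from 0.08 to -0.06. The replicate block, whose numbers the mice of different groups share only as numbers, gave 2926 and 3643 calls over all genes and 13 and 14 among the 23. No paired analysis was possible for the T-ALL groups because they share fewer than 2 numbers. Neither labels nor headers give a batch, so fits within batches were not run. The cause of these moves was not tested.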
